A study of Mus musculus and Homo sapiens with 10 samples.

Results

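L1Md_T and L1Md_Gf are subfamilies of the mouse L1 retrotransposon, and every copy given either name in the deposited L1 table is described here. Each copy was included by its subfamily name alone, not by a measured value. They are 4981 copies of L1Md_T and 124 of L1Md_Gf, together 5105 of the 14949 mouse L1 copies in the table (34.1%), which fall into 36 subfamilies and are all at least 5000 bp long. RNA was sequenced from ES3 mouse embryonic stem cells (C57BL/6) 4 days after transduction with a lentiviral vector, which carried either no hairpin in 2 control libraries (sh-empty) or a hairpin against Gm6871, a KRAB zinc finger protein gene, in 2 knockdown libraries. The RNA was cytoplasmic and poly(A)-selected, and all 4 libraries share the line, the vector type and the time. Binding of Gm6871 was mapped in 1 ChIP library from ES3 cells that overexpressed an HA-tagged copy of it, 2 days after doxycycline, with an antibody to the tag. Binding of KAP1 was mapped in 1 ChIP library from unmodified J1 embryonic stem cells, whose strain is 129S4/SvJae and so differs from that of the RNA. The overexpressed, tagged protein stands in for the endogenous one, and no control for either ChIP was analysed here.

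L1 elements copy themselves through an RNA intermediate. A full-length element carries its own promoter at the 5′ end, a coding part for an RNA-binding protein and a reverse transcriptase, and a short 3′ end. In mouse the promoter is built of short units repeated in tandem, called monomers, and the T, Gf and A subfamilies are the evolutionarily young ones, which hold copies still able to move. KRAB zinc finger proteins bind DNA of chosen sequence and recruit KAP1 (Trim28), which in turn brings enzymes that lay down the repressive histone mark H3K9me3. In embryonic stem cells this system and DNA methylation are known to hold L1 elements of different ages in check.

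The 4 RNA libraries held 37198636 to 66050821 reads over the tables' entries, and L1 copies took 1.20% to 1.67% of the reads. Markers of embryonic stem cells were high throughout, with Pou5f1 at 888 to 1175 RPKM and Nanog at 168 to 194 RPKM, while the Esrrb entry was listed at 0.0135 to 0.0499 RPKM, which may be a failed estimate. None of the table's gene entries matched the 2 reference transcripts of Gm6871, so its knockdown was not checked. Of 10 feeder fibroblast markers, 8 were higher in both libraries numbered 1 than in both numbered 2. Col1a1 was at 9.03 RPKM in control 1 and 9.45 in knockdown 1, against 0.374 in control 2 and 0.453 in knockdown 2. The markers at 0 numbered 3 in control 2 and 2 in knockdown 2, Postn and Dcn among them. The 10 markers summed to 116 RPKM in control 1, 115 in control 2, 120 in knockdown 1 and 24.6 in knockdown 2, and Vim made up most of each sum. The labels do not say that the libraries came from separate cultures, so a p-value reflects the spread among these 4 libraries alone, which may be technical.

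L1Md_T RNA was not higher or lower after Gm6871 knockdown beyond the spread of the controls, because both knockdown libraries lay between controls that stood far apart. The mean over the 4981 copies was 0.0552 RPKM (reads scaled to copy length and to library total) in control 1 and 0.176 in control 2, against 0.102 in knockdown 1 and 0.129 in knockdown 2. The group means were 0.116 ± 0.0856 RPKM in the controls and 0.115 ± 0.0184 after knockdown (SD, n = 2 each). L1Md_Gf had the same order, with means of 0.0482, 0.155, 0.0912 and 0.116 RPKM, or 0.102 ± 0.0758 in the controls and 0.104 ± 0.0174 after knockdown (SD, n = 2 each). On the scale of log2(mean RPKM + 0.01) the knockdown exceeded the control by 0.18 for L1Md_T (SE 0.49) and by 0.20 for L1Md_Gf (SE 0.49), with an adjusted p of 0.881 for both by limma over 23 subfamilies with Benjamini-Hochberg adjustment. That fit called 0 of the 23 subfamilies (0%). The size depends on the pseudocount and the scaling: it was 0.055 and 0.062 with a pseudocount of 0.1, and 0.12 and 0.14 for values scaled to the total L1 RPKM. The outcome rests on the choice of control library: without control 2 the L1Md_T difference was 0.94 (adjusted p = 0.00157, limma), and without control 1 it was -0.58 (adjusted p = 0.150, limma). In bulk RNA, fewer cells with L1Md_T RNA and less of it per cell cannot be told apart. L1Md_T was lower in the library with the higher collagen RNA within each group, and the part of feeder cells in that difference was not tested.

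**Figure D1:**
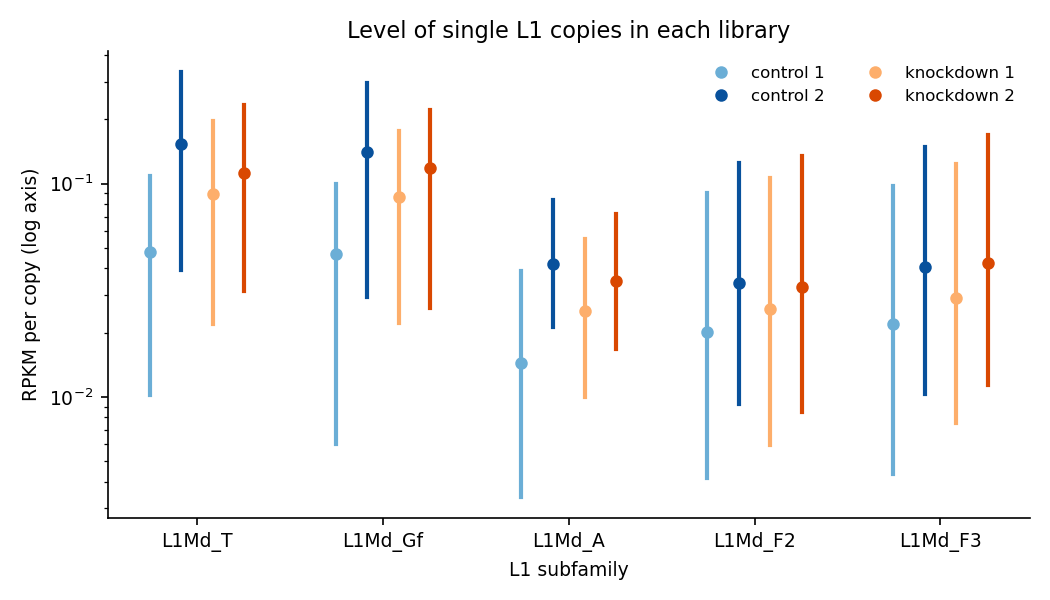
RPKM of single copies of 5 L1 subfamilies in the 4 RNA libraries, on a log axis; the points are medians over copies and the bars run from the 5th to the 95th percentile. The L1Md_T and L1Md_Gf medians are lowest in control 1 (0.0477 and 0.0466 RPKM) and highest in control 2 (0.153 and 0.141 RPKM), with both knockdown libraries between them.

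As reads were assigned, the gap between the controls was seen through the whole subfamily and not in a few copies alone. The placing of reads that match several copies is not stated, so RNA made by few or by many copies cannot be told apart. The median L1Md_T copy was at 0.0477 RPKM in control 1, 0.153 in control 2, 0.0889 in knockdown 1 and 0.112 in knockdown 2. These medians stand for 10, 57, 27 and 44 reads per copy. A count of 10 reads has an exact 95% Poisson interval of 4.80 to 18.4, which covers counting error only, so single copies in control 1 are imprecise. In that library 40 copies of L1Md_T had no read, against 0 in the other libraries. The median L1Md_Gf copy was at 0.0466, 0.141, 0.0864 and 0.118 RPKM. The ratio of the control 2 median to the control 1 median was 3.21 for L1Md_T, 3.02 for L1Md_Gf and 2.94 for L1Md_A, the other young subfamily. It was 1.69 for L1Md_F2, 1.86 for L1Md_F3 and 1.40 for L1_Mus1, which are older. These ratios compare 1 library with 1 other and have no replicate check.

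Copy by copy, the same order recurred in most of the subfamily. Both knockdown libraries lay above control 1 and below control 2 in 3988 L1Md_T copies (80.1%) and 94 L1Md_Gf copies (75.8%). Together these are 80.0% of the copies described here, against 47.7% of all L1 copies. Copies with the knockdown libraries between controls of the reverse order are not counted here. The full order control 2, knockdown 2, knockdown 1, control 1 from high to low held in 63.6% of L1Md_T and 63.7% of L1Md_Gf copies, and in 36.5% of L1Md_A and 16.5% of L1Md_F2 copies. Control 1 was the highest library in 17 L1Md_T copies and in 1 L1Md_Gf copy. Both knockdown libraries exceeded both controls in 103 L1Md_T and 7 L1Md_Gf copies, 2.15% together, where the share over all L1 copies was 10.4%. They lay below both controls in 53 L1Md_T copies and 1 L1Md_Gf copy, 1.06% together, against 4.61% over all L1 copies. Copies share their libraries, so these counts describe the 4 libraries and are not independent repeats.

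The reads assigned to L1Md_T were spread over many copies. With the placing of reads that match several copies unstated, the number of copies that made the RNA is not known. The 10 copies with the most reads took 4.84%, 2.60%, 3.50% and 4.80% of the subfamily's reads in control 1, control 2, knockdown 1 and knockdown 2. In L1Md_A the 10 leading copies took 67.6% to 84.6%, and in L1Md_F2 49.4% to 63.5%. To reach 50% of the reads took 1230 to 1295 L1Md_T copies, 34 to 36 L1Md_Gf copies, 4 to 13 L1Md_F2 copies and 1 L1Md_A copy. A mean over L1Md_T copies therefore follows the typical copy, while a mean over L1Md_A copies follows 1 copy. The log2 ratio of the L1Md_T mean to the L1Md_A mean was -0.91 in control 1, 0.35 in control 2, -0.18 in knockdown 1 and 0.08 in knockdown 2, a knockdown minus control difference of 0.23 (exact permutation test over libraries, two-sided, p = 1.00). Taken from the medians, the ratio was 1.73, 1.86, 1.82 and 1.68, and the difference was -0.05 (exact permutation p = 0.667). With 2 libraries against 2 the smallest p such a test can give is 0.333.

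Levels of L1Md_T copies fell into a lower and an upper set. Binned by mean RPKM over the 4 libraries in steps of 0.25 on the log2 scale, 453 copies lay between 0.0625 and 0.0743 RPKM, 177 between 0.0884 and 0.105, 188 between 0.105 and 0.125, and 928 between 0.149 and 0.177. L1Md_Gf had the same shape at the same levels, with 12 copies between 0.0526 and 0.0625 RPKM, 4 and 5 in the bins from 0.0884 to 0.125, and 24 between 0.125 and 0.149. L1Md_A copies formed a single hump, with 677 copies in the fullest bin, between 0.0263 and 0.0313 RPKM. Over the 4 libraries, 2497 L1Md_T and 63 L1Md_Gf copies had a mean of at least 0.1 RPKM, 16 L1Md_T copies and 0 L1Md_Gf copies reached 0.5 RPKM, and 7 L1Md_T copies reached 1 RPKM. Divided at 0.1 RPKM in the mean of the knockdown libraries, the 2468 L1Md_T copies below had medians of 0.0262 RPKM in control 1 and 0.0801 in control 2, a ratio of 3.06. The 2513 copies at or above it had medians of 0.0728 and 0.255 RPKM, a ratio of 3.51. The controls thus stood apart by a like ratio in both sets.

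**Figure D2:**
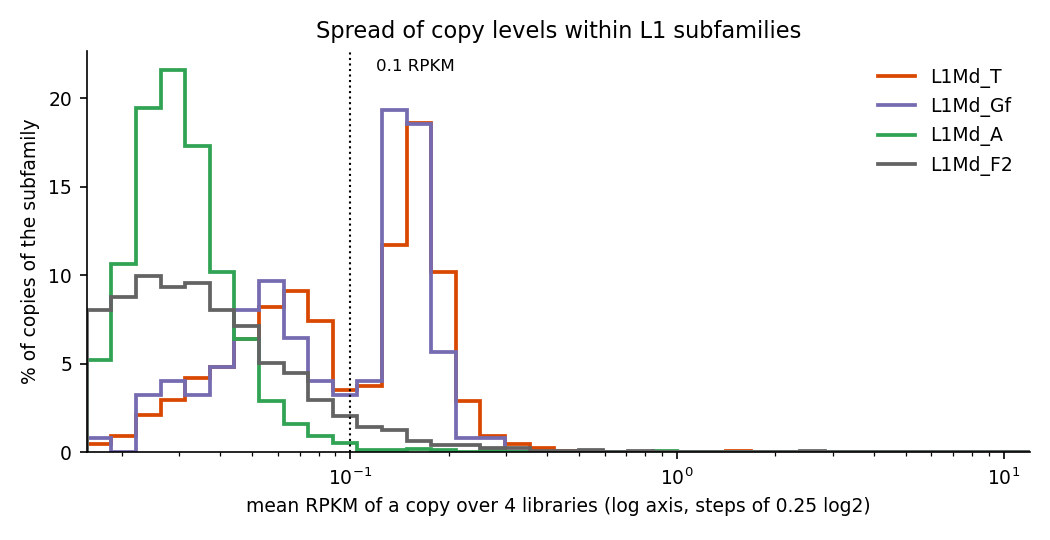
Share of the copies of each subfamily by mean RPKM over the 4 libraries, in bins of 0.25 on the log2 scale, for L1Md_T, L1Md_Gf, L1Md_A and L1Md_F2; the horizontal axis is logarithmic and copies outside its range are not drawn. L1Md_T and L1Md_Gf have a hump on each side of 0.1 RPKM, and L1Md_A has 1 hump, which is fullest from 0.0263 to 0.0313 RPKM.

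The set a copy belonged to went with its length, which itself came in steps. L1Md_T copies had a median length of 6070 bp and 52.1% reached 6000 bp, against 5412 bp and 10.5% for L1Md_Gf. In bins of 100 bp, L1Md_T lengths had local peaks at 5200 bp (490 copies), 5400 bp (563), 5600 bp (266) and 5800 bp (175), and again at 6200 bp (497), 6400 bp (465), 6600 bp (261) and 6800 bp (134). Apart from short lags, the length histogram correlated best with itself at a lag of 220 bp (autocorrelation 0.56), a description over copies with no test. The copies at 5000 to 5399 bp (n = 1124) had median levels of 0.0261, 0.0823, 0.0477 and 0.0639 RPKM in control 1, control 2, knockdown 1 and knockdown 2, and 22.2% of them had a mean of at least 0.1 RPKM. Those at 5400 to 5899 bp (n = 1166) had medians of 0.0546, 0.214, 0.115 and 0.142 RPKM, and 68.7% reached 0.1 RPKM. The next longer ones, at 5900 to 6399 bp (n = 1416), were low again, with medians of 0.0363, 0.0996, 0.0607 and 0.0797 RPKM and 30.8% at 0.1 RPKM or more. Those at 6400 to 7599 bp (n = 1246) were the highest, with medians of 0.0725, 0.265, 0.146 and 0.177 RPKM and 78.9% at 0.1 RPKM or more. These 4 ranges were chosen after the values were seen and carry no test.

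**Figure D3:**
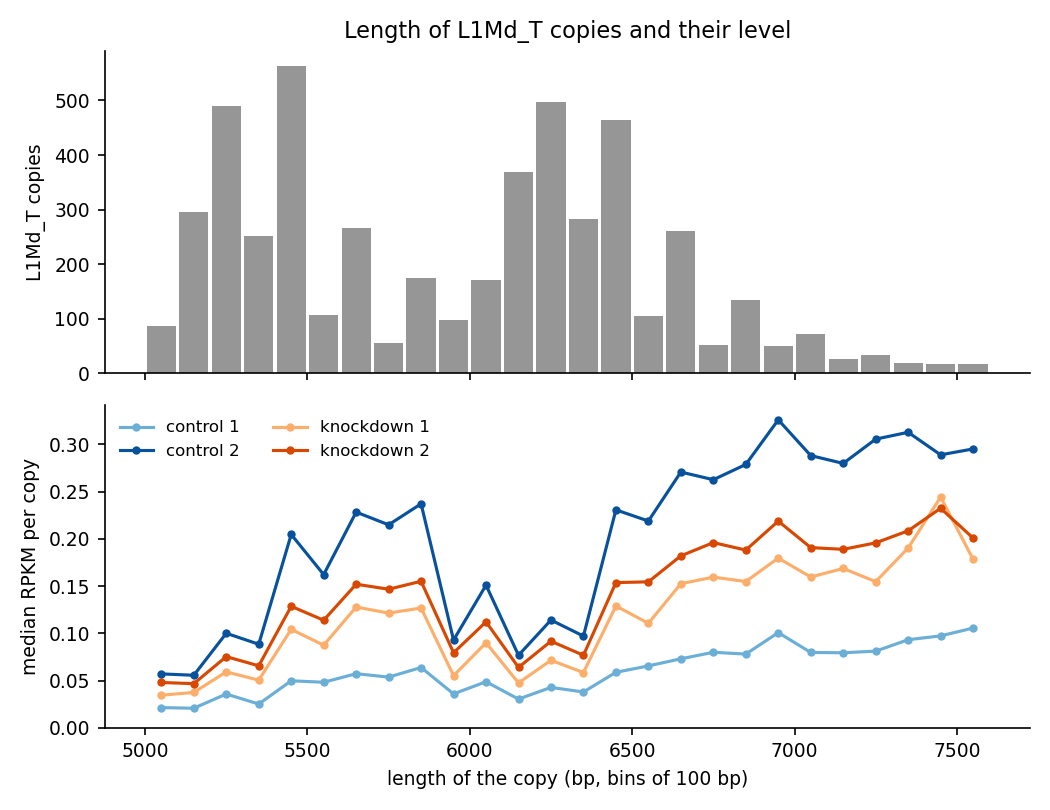
Number of L1Md_T copies by length in bins of 100 bp, and the median RPKM of the copies in each bin in the 4 RNA libraries. The level rises, falls and rises again along the length in every library, with low stretches at 5000 to 5399 bp and 5900 to 6399 bp and high ones at 5400 to 5899 bp and from 6400 bp.

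Longer copies had the higher mean level in every library. Copies of at least 6000 bp exceeded shorter ones by 0.13, 0.21, 0.18 and 0.19 in mean log2(RPKM + 0.1) in control 1, control 2, knockdown 1 and knockdown 2. The knockdown minus control difference of these values was 0.018 (exact permutation test over libraries, two-sided, p = 1.00). RPKM is divided by copy length. The sources used here do not say how reads that match several near-identical copies were assigned, so the level of a single young copy is uncertain, and the part of that placing in the relation of length to level was not tested.

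Among single copies, 1 L1Md_T copy was called after knockdown, and its level followed that of ribosomal RNA across the libraries. Of the copies described here, 2497 L1Md_T and 63 L1Md_Gf copies had a mean of at least 0.1 RPKM and were tested, 2560 of 5105, together with other L1 copies to a total of 3167. With limma on log2(RPKM + 0.1) and Benjamini-Hochberg adjustment over all 3167, 1 of the 2560 was higher and 0 were lower at an adjusted p under 0.05, against 0.0947% higher and 0% lower among all L1 copies tested. At an unadjusted p under 0.05 there was also 1. Limma with voom weights on the whole reads recovered from the RPKM called 1 as well. The median log2 difference over the 2560 was 0.07, with 1744 above 0, and over all 3167 copies it was 0.07, with 2184 above 0. Without control 2, 1505 of the 2560 were called higher, beside 49.4% of all copies tested (and 0.0632% lower). Without control 1, 1 was called higher and 12 lower, beside 0.0947% and 0.505% of all copies tested.

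The called copy lies at chr13:9831267-9837911 (mm9). It was at 2.61 RPKM in control 1, 0.809 in control 2, 1.95 in knockdown 1 and 9.91 in knockdown 2, from 645, 339, 665 and 4348 reads. The log2 difference was 1.53 (SE 0.35, adjusted p = 0.0162 by limma with Benjamini-Hochberg adjustment). That SE and p rest on a spread shared by copies of like level more than on the wide gaps between this copy's own replicates. Knockdown 2 alone exceeded both controls, and knockdown 1 lay between them. The 28S ribosomal RNA entry Rn28s1 was at 263, 66.2, 209 and 1128 RPKM, and the copy's level was 0.992%, 1.22%, 0.930% and 0.878% of it. The part of ribosomal RNA in this copy's reads was not tested. Without knockdown 2 the log2 difference was 0.38 (adjusted p = 1.00, limma), and without control 2 it was 0.74 (adjusted p = 0.353, limma). A KAP1 peak with a score of 151.07 overlapped the copy.

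The other copies with the smallest p in either direction did not pass the test, each with an adjusted p of 1.00 by limma. The copy at chr17:22049433-22055814 was at 0.560, 0.462, 0.579 and 1.28 RPKM in control 1, control 2, knockdown 1 and knockdown 2, a log2 difference of 0.67. The copy at chr10:32536414-32543452 was at 0.229, 0.498, 0.484 and 0.712 RPKM, a log2 difference of 0.63. In both, knockdown 2 was the highest library. Toward lower values, the copy at chr1:77933206-77939156 was at 0.0723, 0.341, 0.0817 and 0.0865 RPKM, a log2 difference of -0.58. The copy at chr13:5170680-5177740 was at 0.183, 0.692, 0.218 and 0.240 RPKM, a difference of -0.53. In both of these, control 2 stood above the other 3 libraries. The copy at chr7:13122844-13127957 (0.0736, 0.199, 0.0837 and 0.0740 RPKM) and that at chr16:65316180-65322413 (0.0949, 0.178, 0.0624 and 0.107 RPKM) had differences of -0.35 each.

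The most abundant L1Md_T copies stood far above the rest, and several kept the subfamily's order of libraries. The highest, at chr15:18594167-18600499, was at 2.36 RPKM in control 1, 9.24 in control 2, 5.71 in knockdown 1 and 6.38 in knockdown 2, which is 49.4, 60.3, 64.2 and 56.9 times the L1Md_T median of the same library. The copy at chr6:18013109-18019841 was at 0.723, 2.27, 1.53 and 1.79 RPKM, or 14.8 to 17.2 times the median. The copy at chr3:48263087-48268696 was at 0.690, 2.25, 1.38 and 1.65 RPKM, or 14.5 to 15.6 times the median. These 3 copies followed the typical L1Md_T copy across the libraries.

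Other abundant copies departed from that order. The copy at chr2:176878720-176884182, which a KAP1 peak of score 379.12 overlapped, was at 1.28, 2.71, 2.03 and 3.39 RPKM, highest in knockdown 2. The copy at chr8:32394799-32399867 was at 1.85, 1.70, 1.50 and 2.28 RPKM, from 11.1 times the subfamily median in control 2 to 38.8 times in control 1. The copy at chr1:108931898-108937965 was at 1.88, 0.842, 1.70 and 1.51 RPKM, with control 2 the lowest. The copy at chr12:19632742-19638574 was at 0.701, 0.960, 0.750 and 0.667 RPKM, a narrower range than the subfamily's. None of these 4 was called between knockdown and control by limma.

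The highest L1Md_Gf copies were lower and kept the common order more closely. The copy at chr5:78052607-78058073 was at 0.148 RPKM in control 1, 0.444 in control 2, 0.238 in knockdown 1 and 0.282 in knockdown 2. The copy at chr12:97060256-97066538 was at 0.0856, 0.308, 0.183 and 0.263 RPKM, and that at chr6:93326142-93331888 at 0.0655, 0.342, 0.156 and 0.269 RPKM. In all 3, both knockdown libraries lay between the controls, with knockdown 2 the higher. In the copy at chr9:25037792-25042874 (0.111, 0.425, 0.230 and 0.208 RPKM) knockdown 1 was the higher of them.

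**Figure D4:**
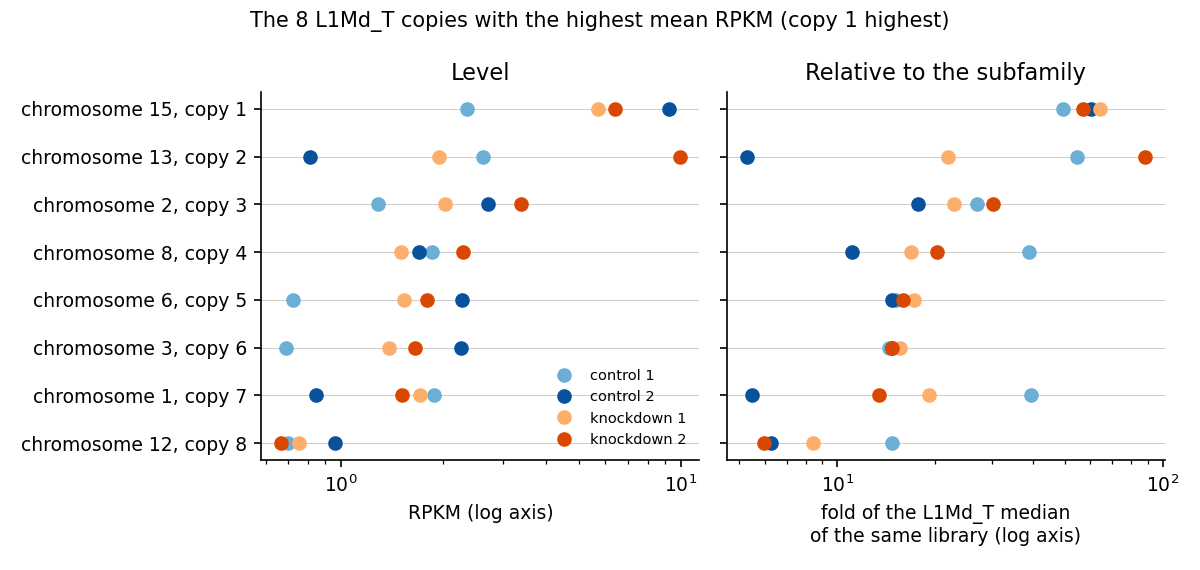
RPKM of the 8 L1Md_T copies with the highest mean over the 4 libraries (left), and the same divided by the L1Md_T median of the library (right), on log axes, 1 point per library and copy. The copy on chromosome 15 spans 2.36 to 9.24 RPKM with control 2 highest, and the copy on chromosome 13 spans 0.809 to 9.91 RPKM with knockdown 2 highest.

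Counted at any score, KAP1 peaks overlapped many L1Md_T copies, a smaller share than in L1Md_F2 and a larger one than in L1Md_A. With an overlap of at least 1 bp, 519 of the 4981 L1Md_T copies had a peak (10.4%, exact 95% binomial interval 9.58% to 11.3%) and 9 of the 124 L1Md_Gf copies (7.26%, 3.37% to 13.3%), against 12.7% of all L1 copies. The share was 6.86% in L1Md_A and 24.6% in L1Md_F2. Peaks on L1Md_A had a higher median score, 248.69 against 99.68 on L1Md_T. Fewer of them had their midpoint outside the copy, 20.5% against 39.4%. With peaks of a score of at least 100 the L1Md_T share was 5.26%. The L1Md_A share at that score was not taken, so the larger share in L1Md_T is shown for all peaks only. Intervals here and for Gm6871 cover counting error only, since each protein was mapped in 1 library. The processing notes do not state how ChIP reads that match several near-identical copies were placed. The part of that placing in the shares and positions of peaks was not tested for either protein. Across the 4 length ranges of L1Md_T the KAP1 share was 7.83% (6.33% to 9.56%) at 5000 to 5399 bp, 10.8% (9.08% to 12.7%) at 5400 to 5899 bp, 9.32% (7.86% to 11.0%) at 5900 to 6399 bp and 13.6% (11.7% to 15.6%) at 6400 to 7599 bp. The ranges with the higher RNA levels thus had the higher shares, although neighbouring intervals overlap in part. Divided by RNA level itself, at 0.1 RPKM in the knockdown mean, the L1Md_T shares were close. They were 10.3% below the cut (253 of 2468 copies) and 10.6% at or above it (266 of 2513). In L1Md_Gf they were 10.0% below (6 of 60) and 4.69% at or above (3 of 64).

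KAP1 peaks on L1Md_T lay at the ends of the copies and often reached past them. Of the 528 peaks on L1Md_T, 208 (39.4%) had their midpoint outside the copy, 283 had it under 500 bp inside the nearer end, and 50 (9.47%) lay wholly inside. The median peak was 782.5 bp wide, had 58.0% of its length inside the copy and its midpoint 62.3 bp inside the nearer end. In L1Md_F2 the midpoint was outside for 10.0% of the peaks, and the median lay 251.5 bp inside. Of the 9 peaks on L1Md_Gf, 5 had their midpoint outside the copy and 4 under 500 bp inside its end. The strand of the copies is not given in the table, so the nearer end may be the promoter end or the other. Many of these peaks therefore hold flanking sequence, and whether KAP1 sat on the L1 or on its flank was not tested.

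**Figure D5:**
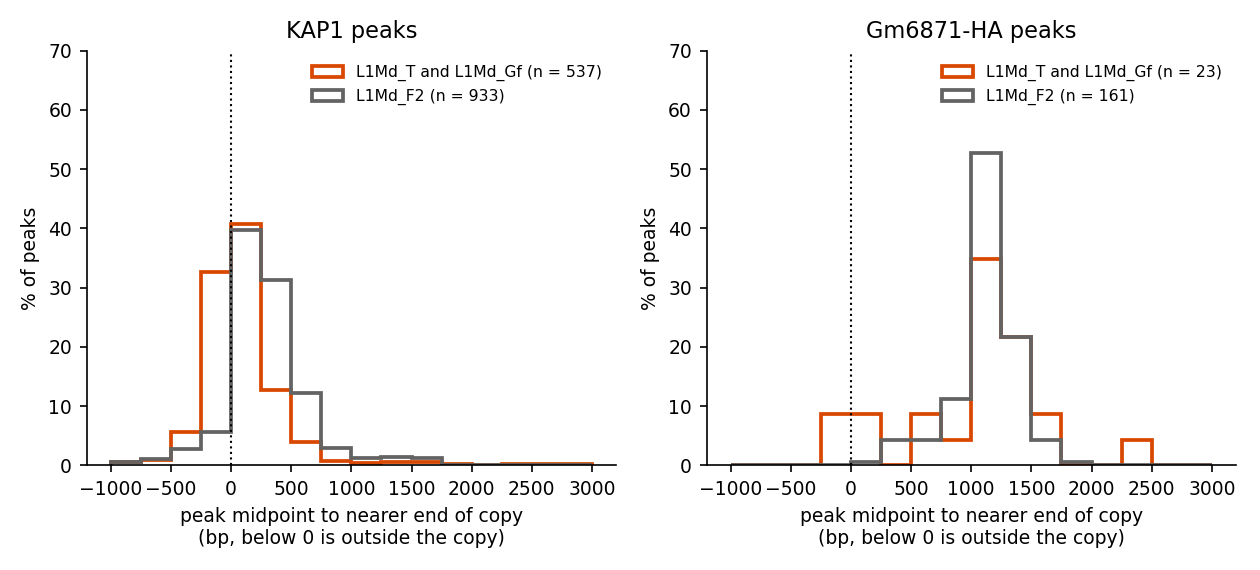
Share of KAP1 peaks and of Gm6871 peaks by the distance of the peak midpoint from the nearer end of the copy, in bp, for L1Md_T with L1Md_Gf and for L1Md_F2; negative distances lie outside the copy, and the end bins also hold peaks beyond the axis. KAP1 peaks on L1Md_T gather around the end (median 62.3 bp inside) and Gm6871 peaks gather at 1000 to 1500 bp inside it (12 of 22 on L1Md_T).

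L1Md_T copies with a KAP1 peak had slightly more RNA than those without in each of the 4 libraries. Their medians were 0.0513, 0.170, 0.0959 and 0.113 RPKM in control 1, control 2, knockdown 1 and knockdown 2 (519 copies), against 0.0475, 0.151, 0.0879 and 0.112 RPKM for the other 4462. Copies with a peak were also longer, with a median of 6200 bp against 6053 bp, and the part of length was not tested. The difference in mean log2(RPKM + 0.1) was 0.048, 0.071, 0.042 and 0.057, and it was 0.12 to 0.18 in L1Md_A and 0.029 to 0.069 in L1Md_F2. The knockdown minus control difference of the L1Md_T values was -0.0095 (exact permutation test over libraries, two-sided, p = 0.667), which turned to 0.0045 over copies with a mean of at least 0.1 RPKM.

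Peak scores, which are the authors' own value for each peak, ran from 50.19 to 2823.01 on L1Md_T with a median of 99.68. The copies with the highest-scoring KAP1 peaks had little RNA. That at chr17:55247926-55254427 (score 2823.01) was at 0.0207, 0.0634, 0.0718 and 0.0629 RPKM, and that at chr4:74091721-74097979 (2722.88) at 0.0172, 0.0887, 0.0590 and 0.0774 RPKM. The copy at chr13:86397908-86404237 (1749.54) was at 0.0170, 0.0727, 0.0369 and 0.0670 RPKM. All 3 were below the subfamily median in each library. The copies at chr8:75915750-75921018 (1658.55; 0.0306, 0.0271, 0.0332 and 0.0230 RPKM) and chr3:93950221-93956419 (1263.23; 0.0347, 0.0870, 0.0377 and 0.0464 RPKM) were also below it.

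The KAP1 share of L1Md_T varied between chromosomes. It was 18.5% on chromosome 6 (60 of 325 copies, 14.4% to 23.1%) and 17.2% on chromosome 8 (40 of 232, 12.6% to 22.7%), against 4.42% on chromosome 7 (13 of 294, 2.38% to 7.44%) and 3.07% on chromosome X (15 of 488, 1.73% to 5.02%). Chromosome X held 9.80% of the L1Md_T copies. The other L1 copies had shares of 21.2% on chromosome 6, 16.9% on chromosome 8, 11.8% on chromosome 7 and 5.18% on chromosome X. Both groups were thus low on chromosome X, which held 2.05% of all KAP1 peaks. On chromosome 7 the L1Md_T share was the lowest of the autosomes. The share of the other L1 copies there was toward the low end of their autosomal range, 10.3% to 22.1%. The difference between chromosomes was not tested.

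Gm6871 peaks were rarely called on L1Md_T and L1Md_Gf, with the same limit on the placing of ChIP reads as for KAP1. They overlapped 22 L1Md_T copies (0.442%, exact 95% binomial interval 0.277% to 0.668%) and 1 L1Md_Gf copy (0.806%, 0.0204% to 4.41%), against 1.93% of all L1 copies. The share was 4.38% in L1Md_F2, 5.41% in L1Md_F3 and 5.82% in L1_Mus1, and 0.255% in L1Md_A. Scores on L1Md_T were 50.28 to 140.17 with a median of 60.27, and a single L1Md_T copy passed a score of 100. The few peaks on L1Md_T lay at a like distance from the end to those on the more often bound subfamilies. Of the 22, 18 were wholly inside the copy and 12 had their midpoint 1000 to 1500 bp from the nearer end, with a median of 1170.25 bp. The median was 1141.5 bp in L1Md_F2, where 120 of 161 peaks fell in that window, and the L1Md_Gf peak lay at 1084 bp.

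The bound L1Md_T and L1Md_Gf copies had lower median RNA levels than the unbound ones, a description with no test. The 23 bound L1Md_T and L1Md_Gf copies had medians of 0.0308, 0.0715, 0.0524 and 0.0593 RPKM in control 1, control 2, knockdown 1 and knockdown 2, against 0.0478, 0.154, 0.0894 and 0.113 RPKM for the unbound ones. Of the 23, 3 had a mean of at least 0.1 RPKM, among them the copy at chr14:43645203-43651109 with 0.182, 0.768, 0.454 and 0.397 RPKM, above the L1Md_T median in each library. In L1Md_F2, 17 of the 247 copies at or above 0.1 RPKM in the knockdown mean were bound and 144 of the 3430 below it. At that cut bound L1Md_F2 copies were thus not rarer among the higher ones. The cut is not alike, since 6.72% of L1Md_F2 copies reach it against 50.5% of L1Md_T copies. Medians of bound and unbound L1Md_F2 copies were not compared. By length, 8 of the bound L1Md_T copies were at 5000 to 5399 bp and 11 at 5900 to 6399 bp, the ranges with the lower levels, and 1 lay in each of the other ranges, while 1 was longer than all of them. In 16 of the 23, both knockdown libraries lay above control 1 and below control 2. They lay above both controls in 1 and below both in 0. The shares over all L1 copies are, in that order, 47.7%, 10.4% and 4.61%. Over all L1Md_T and L1Md_Gf copies they are 80.0%, 2.15% and 1.06%. The read counts of the 23 were 1 to 40 in control 1 and 7 to 286 in control 2, so the level of many a single bound copy is imprecise.

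The highest-scoring Gm6871 peak on these copies was on L1Md_T at chr9:35539758-35546184, with a score of 140.17, and the copy was at 0.00837, 0.0395, 0.00605 and 0.0188 RPKM. The bound L1Md_Gf copy, at chr1:30599088-30604246 (score 97.71), was at 0.0208, 0.0400, 0.0226 and 0.0264 RPKM. Both were below the median of their subfamily in each library. A further L1Md_T copy at chr5:138809333-138815542 had a score of 81.54. The L1Md_T copies at chr3:98280564-98285792 and chr3:98334037-98339265 have the same length, 5229 bp, and carry peaks of the same width and the same score, 94.21. They may not be independent of each other, and without both the L1Md_T share was 0.361%.

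KAP1 and Gm6871 peaks met on a few copies. Of the 23 copies bound by Gm6871, 8 also had a KAP1 peak (34.8%, 16.4% to 57.3%), against 520 of the other 5082 (10.2%, 9.41% to 11.1%). The ChIP libraries came from different lines, and the difference was not tested. In 7 of the 8 the peaks were at the same end of the copy, in 6 of them KAP1 was the nearer to the end, and in 1 of the 8, at chr2:79776814-79783110, the peaks touched. Where KAP1 was nearer to the end and the peaks did not touch, 125 to 440 bp lay between them in 5 copies. Those include chr9:35539758-35546184 (Gm6871 score 140.17, KAP1 score 79.34, 197 bp apart), the L1Md_Gf copy at chr1:30599088-30604246 (97.71, 227.51, 440 bp) and L1Md_T at chr1:133268482-133274658 (75.43, 174.67, 125 bp). The remaining ones are chr1:119616101-119622270 (72.80, 72.98, 332 bp) and chr10:71040645-71046931 (71.28, 70.33, 155 bp). At chr14:43645203-43651109 (59.75, 578.88) the peaks sat at opposite ends, 4131 bp apart.

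Genes known to control L1 elements did not pass the test between knockdown and control. The lists, taken from general knowledge of L1 control, were fitted with limma on log2(RPKM + 0.5) over 11658 genes with Benjamini-Hochberg adjustment, which called 0 genes in all (0%), while 223 had an unadjusted p under 0.05. In the KAP1 and H3K9 list, 0 of 16 tested genes passed, the median log2 difference was -0.13 and 4 were above 0. The median was 0.06 in the list of the HUSH complex and MORC proteins (3 of 6 above 0), -0.07 in the DNA methylation list (3 of 7), 0.01 in the list of proteins that restrict L1 or act on its RNA (7 of 14) and -0.08 in the list of activators (2 of 7), where it was -0.0026 over all genes (5784 of 11658). Both knockdown libraries were below both controls in 4 of the 16 KAP1 and H3K9 genes and above both in 1, where 14.2% and 13.6% of all genes were.

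Trim28, which encodes KAP1, was at 627 RPKM in control 1, 960 in control 2, 711 in knockdown 1 and 548 in knockdown 2, a log2 difference of -0.31 (SE 0.27, adjusted p = 0.997 by limma). Knockdown 1 lay between the controls and knockdown 2 below both. Dnmt3b, a de novo DNA methyltransferase, was at 2.12, 2.87, 1.47 and 0.765 RPKM, a log2 difference of -0.91 (unadjusted p = 0.0347, adjusted p = 0.997, limma). Rnaseh2c, a subunit of the enzyme that cuts the RNA of RNA-DNA hybrids, was at 46.0, 40.4, 22.6 and 24.0 RPKM, a difference of -0.87 (unadjusted p = 0.00246, adjusted p = 0.997, limma). In both genes the groups did not overlap. Tex19.1, which acts against L1 mobility in stem cells, was at 49.5, 68.9, 53.8 and 14.6 RPKM, with knockdown 2 alone below the rest.

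Other named regulators did not pass the test either. Some listed genes had positive differences, and 3 of them were picked after their values were seen. Atrx, a chromatin remodeller of the KAP1 and H3K9 list, was at 95.7, 102, 115 and 127 RPKM, a log2 difference of 0.29 with both knockdown libraries above both controls. Zc3hav1, an antiviral RNA-binding protein, had a difference of 0.51, and Apobec3, a cytidine deaminase, one of 0.35, each with an adjusted p of 0.997 by limma as for Atrx. Dnmt3a, the other de novo methyltransferase, was at 2.92, 2.58, 2.57 and 1.54 RPKM, and Dnmt3l, their cofactor, at 6.06, 6.09, 6.65 and 5.02 RPKM. Mphosph8 of the HUSH complex was at 37.1, 31.1, 34.0 and 33.4 RPKM, and Morc2a, which works with HUSH, at 5.78, 6.31, 6.17 and 4.39 RPKM. Yy1, a transcription factor known to bind L1 promoters, was at 48.2, 59.1, 50.8 and 49.7 RPKM. The log2 differences of these 5 genes ran from -0.37 to -0.010, and each missed the limma threshold. Mov10, an RNA helicase, was at 0.810, 0.391, 0.360 and 0.595 RPKM, and Samhd1, which lowers the supply of nucleotides, at 0.574, 0.767, 0.655 and 0.452 RPKM. Setdb1, the H3K9 methyltransferase that KAP1 recruits, had 0.176 to 0.256 RPKM and Dnmt1, the maintenance methyltransferase, 0.113 to 0.149 RPKM, both below the 0.5 RPKM needed for a test. Uhrf1, the partner of Dnmt1, was listed at 0 in all 4 libraries. Low or zero values of an entry can be a failed estimate, so the values of Setdb1, Dnmt1 and Uhrf1 are given as listed and are not read as low expression.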

How the data were processed

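Per the labels, RNA was cytoplasmic, poly(A)-selected and DNase-treated. The submitters' processing notes name Bowtie 0.12.5 and the mouse build mm9; the placing of reads with several matches is not stated there. The authors deposited RPKM per L1 copy and per RefSeq entry, and peak lists with a score per peak; the deposited peak scores were used only to rank and filter peaks, and no peak was below a score of 50. RPKM times length times the library total gave whole reads within 0.01. Gene names came from RefSeq, with 27888 of 36083 entries matched.

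From the RPKM, limma 3.58.1 in R 4.3.3 was fitted to log2(RPKM + 0.1) of copies with a mean of at least 0.1 RPKM, to log2(mean RPKM + 0.01) of subfamilies with at least 10 copies, and to log2(RPKM + 0.5) of genes with a mean of at least 0.5 RPKM, each over its whole table with Benjamini-Hochberg adjustment at 0.05. Adding a pseudocount understates the change of low values. In the fit of copies each was tested against a spread shared by copies of like level. Values made once per library were compared by exact permutation tests (SciPy 1.17.1). Peaks were joined to copies by at least 1 bp, with 95% exact binomial intervals. Only the fit of copies was tried on simulated reads, in which the libraries of a group shared the same expected level. That setting lacks the gap between the controls seen here, so it does not show how the fit behaves with such a gap. The planned design allowed for a count test; since the values were RPKM, limma took its place. Copies named in the text were those called, the 4 with the smallest p in each direction, the 8 L1Md_T and 4 L1Md_Gf copies with the highest mean, the 5 with the highest-scoring peak of each protein, and up to 6 with both peaks. The choice of these subfamilies, and of the gene lists, was made with earlier results of these data known, although no measured value decides which copies belong. Coordinates are mm9, counted from 1.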

Additional observations from a re-analysis of the deposited data

How the results depend on the processing

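The number of L1Md_T and L1Md_Gf copies called by limma, 1, became 0 with a pseudocount of 0.5, without a filter, with a mean of at least 0.5 RPKM, without the variance trend and after median centring, and 0 to 1505 when 1 library was left out, where a lone library is assumed to vary like the others. The replicate block also called 1 and left the L1Md_T difference at 0.18 (adjusted p = 0.640, limma). The labels do not tie the replicate numbers to a shared batch. Deviations of same-numbered libraries had a correlation of 0.29 over genes and -0.07 over L1 copies. Such a correlation leaves out a shift shared by all copies. The L1Md_T mean was lower in the library numbered 1 in both groups (0.0552 against 0.176 RPKM in the controls, 0.102 against 0.129 after knockdown). Leaving out 1 library gave -0.58 to 0.94 for the L1Md_T mean, -0.55 to 0.96 for L1Md_Gf, -0.40 to 0.86 for the log2 ratio of L1Md_T to L1Md_A, -0.021 to 0.0019 for the KAP1 level difference and -0.022 to 0.058 for the length class. The same ratio was -0.056 without the 5 highest copies and -0.048 by medians (chosen after seeing the data), and the KAP1 level difference 0.0045 over copies of at least 0.1 RPKM. Among single copies, leaving out 1 library gave -0.74 to 0.042 for the copy on chromosome 7, -1.27 to 0.22 at 5170680 on chromosome 13 and -1.26 to 0.096 on chromosome 1, each above 0 without control 2, and -0.047 to 0.98 on chromosome 2, below 0 without control 1. With peaks of a score of at least 100, the Gm6871 share was 0.0201% of L1Md_T and 0% of L1Md_Gf, and the KAP1 share of L1Md_T 5.26%. The KAP1 share was 6.42% of L1Md_T and 3.23% of L1Md_Gf with at least 50% of the peak inside, and 12.6% of L1Md_T within 1000 bp. Of 73 checks on values that answer a comparison, 49 kept direction, call and size.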

Other observations

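L1Md_T copies on the X chromosome had medians of 0.0493, 0.153, 0.0943 and 0.118 RPKM in control 1, control 2, knockdown 1 and knockdown 2, close to the 0.0476, 0.153, 0.0885 and 0.112 RPKM of the autosomal copies, although their KAP1 share was lower. The 12 copies on the Y chromosome had medians of 0.0456, 0.0977, 0.0701 and 0.0793 RPKM. Copies lay far from each other, with a median gap of 227087 bp, and 170 of the 5084 gaps were under 10000 bp.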
